A study of Mus musculus with 6 samples.

Results

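The genes described here are 9 receptors through which lymphoid cells find their place in bone marrow, lymph nodes and spleen: Cxcr4, Cxcr5, Ccr7, S1pr1, S1pr2, S1pr4, P2ry10, P2ry10b and Gpr183. They were picked by name from the deposited value table of 6 Affymetrix arrays, through probes that the platform annotation assigns to 1 gene, and all 9 were measured among 19938 genes. Each was read by 1 such probe. The choice was made with the difference between the 2 groups already known, so the receptors' own values are given as a description without a test. The RNA came from mouse pre-B cells transformed by BCR-ABL1, the fusion kinase of the Philadelphia chromosome, and models acute lymphoblastic leukaemia (ALL) of that type. Every sample was of the FvB/N strain, carried floxed alleles of both Spry1 and Spry2 (SPRY1/2 fl/fl), was puromycin-resistant and had received 0.5 micromolar 4OH-Tamoxifen 2 days before RNA extraction. The control group was transduced with PMIP-ERT2 (3 arrays, called ERT2) and the other with PMIP-CRE-ERT2, which adds the tamoxifen-inducible recombinase (3 arrays, called Cre-ERT2). Both groups carry BCR-ABL1, the floxed alleles and the drug, and no cells with the recombinase but without floxed alleles were analysed here. Whether replicates are separate cultures is not stated in the labels. Every error and p-value therefore covers the spread among these arrays alone, and that spread may be technical.

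All 9 receptors have 7 transmembrane helices and signal through heterotrimeric G proteins. CXCR4 holds B cell precursors in the bone marrow by binding CXCL12, while CCR7 and CXCR5 lead lymphocytes to the T cell zone and to follicles of lymphoid organs. Receptors for sphingosine 1-phosphate (S1P) act at the exit: S1PR1 draws cells towards blood and lymph, and S1PR2 inhibits migration through G12 and G13 proteins. GPR183, also known as EBI2, senses oxysterols, and P2RY10 is a receptor for lysophosphatidylserine.

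P2ry10 and P2ry10b lie next to each other on the X chromosome in the mouse RefSeq annotation of GRCm38.p6, and both were lower in Cre-ERT2 cells, as described below. Promoter windows of RefSeq, from 250 bases before to 50 bases after each annotated start, were given for 6 of the 9 receptors, in 9 windows, with 2 starts for P2ry10 and 3 for P2ry10b. The longest run that a P2ry10 window shared with a P2ry10b window on the same strand was 11 bases, TACTTCCTCTT. Another pair of their windows shared a run of 10 bases. The 11-base run ended 22 bases before the start in 1 window of P2ry10 and 36 bases before it in 1 window of P2ry10b. The 100 bases before those starts are shown because these neighbouring genes differed between the groups in the same direction. Capitals mark this run without its first and last base, ACTTCCTCT, which is AGAGGAAGT on the other strand, a word of the type bound by ETS factors such as PU.1.
P2ry10, GRCm38.p6, chrX:107089233-107089332, plus strand: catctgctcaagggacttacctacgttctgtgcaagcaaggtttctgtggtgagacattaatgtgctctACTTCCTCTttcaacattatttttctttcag
P2ry10b, GRCm38.p6, chrX:107149515-107149614, plus strand: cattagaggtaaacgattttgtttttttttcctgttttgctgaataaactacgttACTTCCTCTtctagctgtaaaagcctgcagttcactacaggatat
The word AGAGGAAGT, searched on both strands, was present in 330 of 32851 mouse promoter windows (1.0%). Among the 9 receptor windows it was found in these 2. It was taken from the run that these 2 windows share, after the sequences had been read. Its presence in both follows from that choice and is a description. Of the other words searched on both strands, CACCC (bound by KLF factors) was found in windows of Cxcr4, S1pr2 and S1pr4 and in 57.5% of all windows. The NF-kB consensus was found in 1 window of P2ry10 and in 20.7% of all windows, and GTAAACA (FOXO) in 0 of the receptor windows and in 3.65% of all. CANNTG (E-box) occurred in 8 of the 9 receptor windows, from 5 genes, and in 72.3% of all. Among these 8, 2 windows of P2ry10b overlap and hold the same CAACTG site.

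Values are log2 expression values, on which a difference of 1 is a doubling of signal. Array medians lay between 7.73 and 7.81. Both floxed genes were lower in the Cre-ERT2 arrays. Spry1 lay between 9.04 and 9.25 in ERT2 and between 8.11 and 8.41 in Cre-ERT2 arrays (limma adjusted p = 0.00462), and Spry2 between 8.33 and 8.57 against 7.27 and 7.51 (limma adjusted p = 0.00162). The arrays numbered 1 stood apart: over all probes ERT2 1 correlated with ERT2 2 and ERT2 3 at 0.9923 and 0.993, and with Cre-ERT2 1 at 0.9931, while ERT2 2 and ERT2 3 correlated at 0.9971. Each receptor difference is therefore also given without both arrays numbered 1, an alternative chosen after seeing the data. The 9 measured pre-B cell markers, among them Cd79a, Igll1 and Pax5, had a mean level of 12.68 in both groups. Of these 9, Rag1 and Dntt, named after their values were seen, differed by -0.31 ± 0.10 and 0.17 ± 0.07 (SE; limma adjusted p = 0.138 and 0.276). The mean of 5 T cell markers lay between 6.76 and 6.85 on every array, with Cd4 at -0.22 ± 0.07 (SE; limma adjusted p = 0.142). The mean of 8 myeloid markers was 6.93 ± 0.04 (SD, n = 3) in the controls and 7.06 ± 0.10 (SD, n = 3) with Cre-ERT2. Among them the lysozyme gene Lyz2, named after its values were seen, read 8.56, 8.91 and 8.42 in ERT2 1, 2 and 3 and 9.05, 10.12 and 9.90 in Cre-ERT2 1, 2 and 3, a log2 difference of 1.07 ± 0.25 (SE; limma adjusted p = 0.0651). Its groups did not overlap, and in both groups its order was not that of the mast cell markers. Mast cell markers also differed between the groups. The mean of 17 such genes was 8.18, 7.69 and 7.92 in ERT2 1, 2 and 3 and 9.32, 8.31 and 8.73 in Cre-ERT2 1, 2 and 3, a difference of 0.86 (exact two-sided permutation p = 0.1, the smallest that 3 arrays against 3 allow). All 17 were higher on average in Cre-ERT2, where 36.9% of all genes were. Of the 17, Tpsab1, Tpsb2 and Mcpt2 (3 genes) passed the test across all genes as higher, beside 0.797% of all genes. Groups did not overlap for 10 of the 17 and for 24.8% of all genes. In whole-culture RNA, a change in the share of cells of one type and a change in RNA per cell cannot be told apart.

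Of the 9 receptors, P2ry10b and P2ry10 were lower in Cre-ERT2 cells and Ccr7 was higher, with groups that did not overlap, while the 6 others had overlapping groups. Over all genes, 24.8% had groups that did not overlap. The receptors were chosen with this contrast known, so nothing is read from their count of 3. The median log2 difference of the 9 receptors was 0.01, beside -0.03 over all genes.

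**Figure D1:**
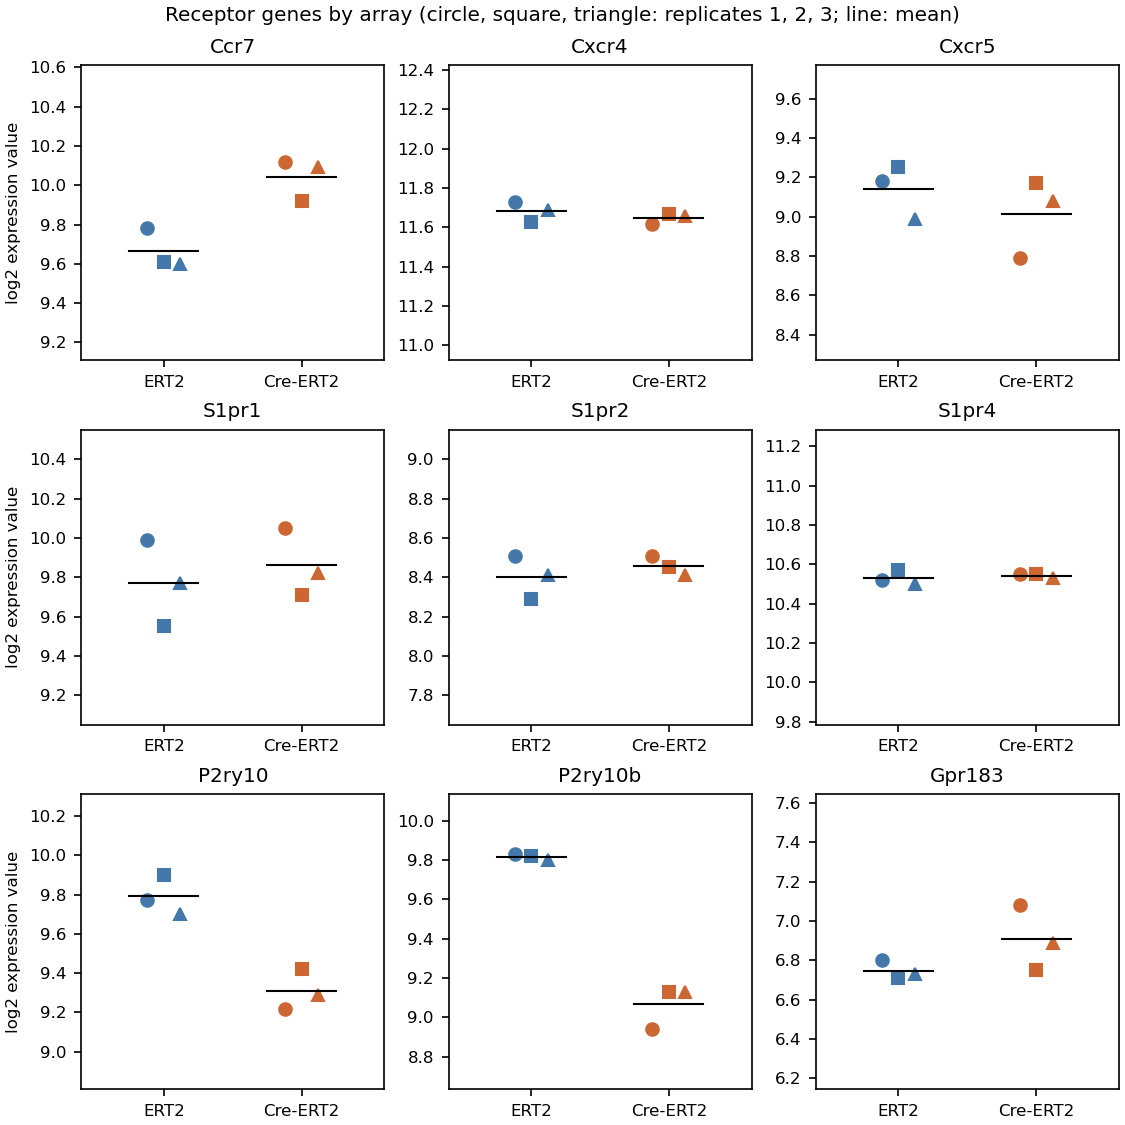
Log2 expression value (vertical axis, each panel spanning the same range of 1.5) of the 9 receptor genes on the ERT2 (blue) and Cre-ERT2 (orange) arrays, with a symbol for each replicate number and a line at the group mean. The groups are separate for Ccr7, P2ry10 and P2ry10b and overlap for the 6 others.

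CCR7, the receptor for CCL19 and CCL21, guides lymphocytes and dendritic cells into lymph nodes. Ccr7 read 9.78, 9.61 and 9.60 in ERT2 1, 2 and 3, and 10.12, 9.92 and 10.09 in Cre-ERT2 1, 2 and 3. The lowest Cre-ERT2 array lay 0.14 above the highest ERT2 array. The means were 9.66 ± 0.10 and 10.04 ± 0.11 (SD, n = 3 each), a log2 difference of 0.38 with a 95% interval from 0.21 to 0.55, or 1.30 times the control signal. Without both arrays numbered 1 the difference was 0.40. With each array's mean of mast cell markers as a covariate it was 0.19 ± 0.10 (SE). The highest Ccr7 value in each group was on array 1, which also had the highest mast cell marker mean. The part of mast cell RNA in the Ccr7 difference was not tested. When each array was left out in turn, the difference lay between 0.34 and 0.44.

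CXCR4, which binds the bone marrow chemokine CXCL12, showed little spread. Cxcr4 read 11.73, 11.63 and 11.69 in ERT2 arrays and 11.62, 11.67 and 11.66 in Cre-ERT2 arrays. The groups overlapped, and all 6 values lay within a narrow band. The log2 difference was -0.04 with a 95% interval from -0.16 to 0.09. Repeated quantile normalization moved it to 0.01, and without both arrays numbered 1 it was 0.002.

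CXCR5, the receptor for the follicular chemokine CXCL13, marks mature follicular B cells. Cxcr5 read 9.18, 9.25 and 8.99 in ERT2 arrays and 8.79, 9.17 and 9.08 in Cre-ERT2 arrays. Cre-ERT2 1 was the lowest of the 6, and the other two Cre-ERT2 arrays fell inside the range of the controls. The log2 difference was -0.12 with a 95% interval from -0.36 to 0.12. It was 0.01 without both arrays numbered 1, and 0.17 ± 0.13 (SE) with the mast cell covariate, so its direction is not settled by these arrays.

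The 3 sphingosine 1-phosphate receptors had overlapping groups. S1PR1, the receptor that lets lymphocytes leave lymphoid tissue, had the widest spread among them. S1pr1 read 9.99, 9.55 and 9.77 in ERT2 arrays and 10.05, 9.71 and 9.82 in Cre-ERT2 arrays. In both groups array 1 was the highest and array 2 the lowest, the same order as the mast cell marker means. The log2 difference was 0.09 with a 95% interval from -0.19 to 0.36, smaller than the SD within ERT2 (0.22) and within Cre-ERT2 (0.18). It was 0.10 without both arrays numbered 1 and -0.30 ± 0.12 (SE) with the mast cell covariate. The part of mast cell RNA in the S1pr1 values was not tested.

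S1PR2 couples to G12 and G13 proteins and restrains migration. S1pr2 read 8.51, 8.29 and 8.41 in ERT2 arrays and 8.51, 8.45 and 8.41 in Cre-ERT2 arrays, with a log2 difference of 0.06 and a 95% interval from -0.10 to 0.21. S1PR4 is a receptor of blood cells for the same lipid. S1pr4 read 10.52, 10.57 and 10.50 in ERT2 arrays and 10.55, 10.55 and 10.53 in Cre-ERT2 arrays. Its SDs were 0.03 and 0.01, and the log2 difference was 0.01 with a 95% interval from -0.10 to 0.13. Without both arrays numbered 1 the differences were 0.08 for S1pr2 and 0.01 for S1pr4. The remaining receptors for this lipid were named after their values were seen. S1pr3 read 8.39, 7.86 and 8.23 in ERT2 and 8.98, 8.63 and 8.75 in Cre-ERT2 arrays, a log2 difference of 0.63 ± 0.14 (SE; limma adjusted p = 0.0569), in the same order within each group as the mast cell markers. S1pr5 differed by -0.07 ± 0.08 (SE; limma adjusted p = 0.70). The part of mast cell RNA in the S1pr3 difference was not tested.

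P2ry10b, the neighbouring paralogue of the lysophosphatidylserine receptor gene P2ry10, had the largest difference of the 9 receptors. It read 9.83, 9.82 and 9.80 in ERT2 1, 2 and 3 and 8.94, 9.13 and 9.13 in Cre-ERT2 1, 2 and 3. The controls lay almost on one value, and the highest Cre-ERT2 array was 0.66 below the lowest control. The means were 9.81 ± 0.01 and 9.07 ± 0.11 (SD, n = 3 each), a log2 difference of -0.75 with a 95% interval from -0.89 to -0.60, which left 59.6% of the control signal. Of 19938 genes, 9 had a lower value of this difference. It was -0.68 without both arrays numbered 1 and -0.61 ± 0.10 (SE) with the mast cell covariate, and lay between -0.78 and -0.68 when each array was left out in turn.

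P2ry10 read 9.77, 9.90 and 9.70 in ERT2 arrays and 9.22, 9.42 and 9.29 in Cre-ERT2 arrays. The groups were 0.27 apart at their nearest arrays. The means were 9.79 ± 0.10 and 9.31 ± 0.10 (SD, n = 3 each), a log2 difference of -0.48 with a 95% interval from -0.64 to -0.31, which left 71.9% of the control signal. It was -0.44 without both arrays numbered 1 and -0.30 ± 0.10 (SE) with the mast cell covariate. When each array was left out in turn, the difference lay between -0.53 and -0.42. The part of mast cell RNA in the P2ry10 and P2ry10b differences was not tested.

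How far the probes of P2ry10 and P2ry10b read each other's transcripts was not tested. The protein-coding genes on either side of the pair are also lipid receptor genes. Lpar4, a lysophosphatidic acid receptor gene, went from 6.41 ± 0.25 in ERT2 to 6.02 ± 0.13 in Cre-ERT2 (SD, n = 3 each; adjusted p by limma = 0.128), with both means below the lower quartile of every array (6.46 to 6.55). Gpr174, another lysophosphatidylserine receptor gene, went from 8.04 ± 0.10 in ERT2 to 7.92 ± 0.34 in Cre-ERT2 (SD, n = 3 each; adjusted p by limma = 0.74). Its Cre-ERT2 arrays ranged from 7.55 to 8.22 and enclosed the 3 controls.

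GPR183 positions B cells within lymphoid organs along gradients of oxysterol. Gpr183 was dim, below the median of every array: it read 6.80, 6.71 and 6.73 in ERT2 arrays and 7.08, 6.75 and 6.89 in Cre-ERT2 arrays. The groups overlapped between ERT2 1 and Cre-ERT2 2, and within both groups the order of the arrays was that of the mast cell markers. The log2 difference was 0.16 with a 95% interval from -0.03 to 0.35. It was 0.10 without both arrays numbered 1 and -0.10 ± 0.09 (SE) with the mast cell covariate. The part of mast cell RNA in the Gpr183 values was not tested.

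**Figure D2:**
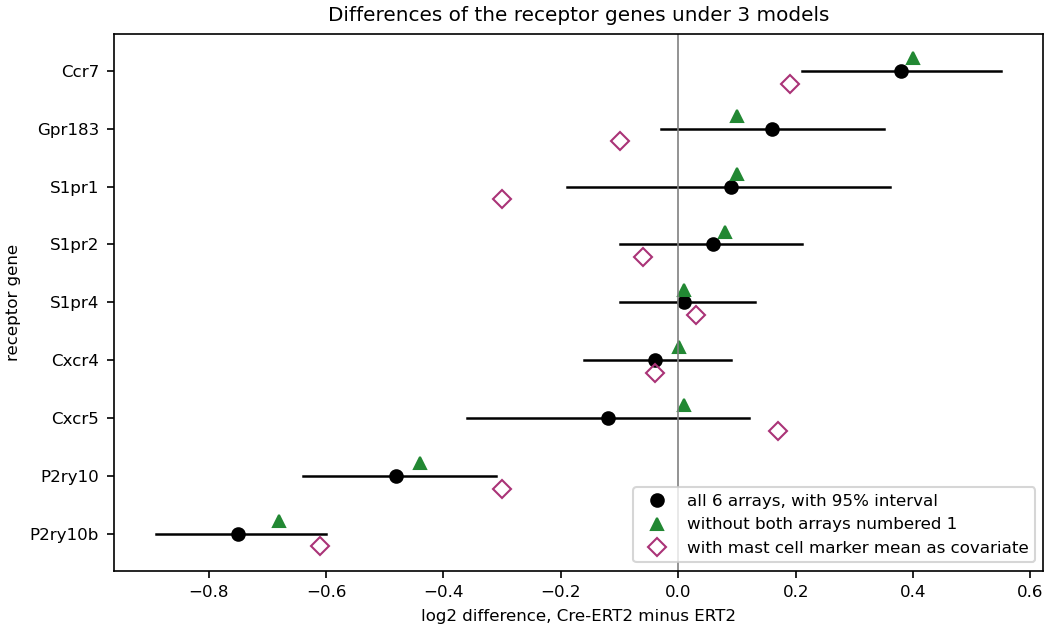
Log2 difference, Cre-ERT2 minus ERT2 (horizontal axis), of each receptor gene over all 6 arrays with its 95% interval (black), without both arrays numbered 1 (green triangles) and with the mean of the mast cell markers as covariate (open diamonds). P2ry10b, P2ry10 and Ccr7 keep their direction in all 3, and S1pr1, Gpr183, S1pr2 and Cxcr5 are on the other side of 0 with the covariate.

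Genes with the most similar profile to a receptor were sought for the 3 receptors with an absolute log2 difference of at least 0.3. Likeness was Pearson's r over the 6 arrays, which fall into 2 groups, so r also holds the difference between those groups. Predicted genes, clones and small RNAs were left out, and a candidate's SD over the arrays had to be at least 0.5 times the receptor's, which left 5704 candidates for Ccr7, 3272 for P2ry10 and 808 for P2ry10b of 19938 genes. The nearest genes are those among these candidates. Ccr7 was closest to Huwe1 (r = 0.9938), a ubiquitin ligase gene, and Csf2rb (r = 0.9937), the shared beta chain of cytokine receptors. Csf2rb had a log2 difference of 0.44 and Huwe1 of 0.27. P2ry10 was closest to Prss12 (r = 0.9941), a serine protease gene, and Rap2c (r = 0.9940), a small GTPase gene, with differences of -0.32 and -0.27. P2ry10b was closest to Mei4 (r = 0.9968), a meiotic recombination gene, and Car2 (r = 0.9930), a carbonic anhydrase gene, with differences of -0.39 and -0.46. P2ry10 and P2ry10b had r = 0.9623 with each other.

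Around the receptors, 171 measured genes in 7 lists were counted: ligands, ligand metabolism, other receptors, G proteins and desensitisation, adhesion, migration machinery, and regulators of receptor level. Of these, 6 rose and 2 fell in the limma fit (adjusted p under 0.05), beside 1.92% of all genes called (0.797% higher and 1.12% lower). Of these 8, Cd69 alone passed when every probe was tested, and Cd69 and P2ry13 alone passed with the mast cell covariate. Without both arrays numbered 1, Rgs1, Itgal and Dock8 did not pass (adjusted p by limma = 0.126, 0.0693 and 0.0643). Rgs18 did not pass with an intensity trend (adjusted p by limma = 0.0655). The lists were written with earlier results of these data known.

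The ligands and their scavenging receptors did not pass. Of 6 measured genes 0 were called, and the median log2 difference was -0.01. The 2 lowest p-values belonged to Ccl19, a ligand of CCR7, at -0.09 ± 0.09 (SE; limma adjusted p = 0.652), and Cxcl13, the ligand of CXCR5, at 0.08 ± 0.08 (SE; limma adjusted p = 0.673). Cxcl12, named after its values were seen, differed by -0.002 ± 0.06 (SE; limma adjusted p = 0.991). Among 19 genes listed for the metabolism of sphingosine 1-phosphate, lysophosphatidylserine and oxysterols, 0 were called and the median was -0.01. Sgpp1, a sphingosine 1-phosphate phosphatase gene, differed by -0.16 ± 0.05 (SE; limma adjusted p = 0.15) and the ceramide synthase gene Cers6 by 0.45 ± 0.16 (SE; limma adjusted p = 0.18). At an unadjusted p under 0.05 by limma the counts were 0 of 6 and 2 of 19, beside 3605 of 19938 over all genes. In these 2 lists 0 and 2 genes had groups that did not overlap, where 24.8% of all genes did.

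Among 36 other chemoattractant and lipid receptors, 1 rose and 1 fell, with a median of 0.02. At an unadjusted p under 0.05 by limma 9 of 36 passed, beside 3605 of 19938 over all genes. Groups did not overlap for 11 of 36, where 24.8% of all genes did not. C3ar1, named after its values were seen, had the largest difference in the list, 1.13 ± 0.25 (SE; limma adjusted p = 0.0581). Gpr18, a lymphoid receptor gene next to Gpr183 on chromosome 14, rose from 10.64 ± 0.06 in ERT2 to 11.12 ± 0.09 in Cre-ERT2 (SD, n = 3 each; adjusted p by limma = 0.0124). Its lowest Cre-ERT2 array (11.03) was above its highest control (10.71). P2ry13, a receptor gene for adenosine diphosphate, fell from 9.14 ± 0.24 in ERT2 to 8.56 ± 0.08 in Cre-ERT2 (SD, n = 3 each; adjusted p by limma = 0.0416). The Gpr18 call was lost without ERT2 2, ERT2 3 or Cre-ERT2 3 (adjusted p = 0.0548, 0.0725 and 0.077), and the P2ry13 call without ERT2 2, ERT2 3 or any 1 Cre-ERT2 array (adjusted p from 0.0534 to 0.171). With the mast cell covariate the differences were 0.54 for Gpr18 and -0.85 for P2ry13.

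Among 30 genes of G proteins and receptor desensitisation, 2 rose and 1 fell, with a median of 0.01. At an unadjusted p under 0.05 by limma 7 of 30 passed, beside 3605 of 19938 over all genes. Groups did not overlap for 7 of 30, where 24.8% of all genes did not. Gna15, a G protein alpha subunit gene of blood cells that lies next to S1pr4 on chromosome 10, rose from 10.96 ± 0.13 in ERT2 to 11.56 ± 0.10 in Cre-ERT2 (SD, n = 3 each; adjusted p by limma = 0.0128). Rgs1, which encodes a GTPase activator that dampens chemokine receptor signalling, rose from 6.59 ± 0.15 in ERT2 to 7.12 ± 0.18 in Cre-ERT2 (SD, n = 3 each; adjusted p by limma = 0.0459). Its values were dim, below the median of every array. Rgs18, another gene of that family, fell from 9.50 ± 0.26 in ERT2 to 8.50 ± 0.36 in Cre-ERT2 (SD, n = 3 each; adjusted p by limma = 0.0369). The Gna15 call was lost without ERT2 2, ERT2 3 or Cre-ERT2 3 (adjusted p from 0.0545 to 0.0782), the Rgs1 call without any 1 of the 6 arrays (0.0579 to 0.156), and the Rgs18 call without any 1 of them but Cre-ERT2 1 (0.0515 to 0.17). With the mast cell covariate the differences were 0.65 for Gna15, 0.38 for Rgs1 and -1.31 for Rgs18. Gnai2, the main inhibitory alpha subunit used by chemokine receptors, was named after its values were seen: it differed by -0.004 ± 0.05 (SE; limma adjusted p = 0.977).

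Among 21 adhesion molecules 1 rose and 0 fell, with a median of 0.12. The call was Itgal, the alpha chain of the integrin LFA-1, which went from 8.48 ± 0.07 in ERT2 to 8.87 ± 0.02 in Cre-ERT2 (SD, n = 3 each; adjusted p by limma = 0.0187). Among 44 genes of the migration machinery 1 rose and 0 fell, with a median of 0.07. That gene was Dock8, an activator of CDC42 in migrating leukocytes, from 10.90 ± 0.09 in ERT2 to 11.24 ± 0.03 in Cre-ERT2 (SD, n = 3 each; adjusted p by limma = 0.0361). The Itgal call was lost without ERT2 3, Cre-ERT2 1 or Cre-ERT2 3 (adjusted p from 0.0588 to 0.124), and the Dock8 call without any 1 array but ERT2 1 (0.0666 to 0.169). With the mast cell covariate the differences were 0.39 for Itgal and 0.28 for Dock8. At an unadjusted p under 0.05 by limma, 8 of 21 adhesion genes and 11 of 44 migration genes passed, with 2 lower in each list. Over all genes 3605 of 19938 passed, 2560 of them lower. The share of all genes with a positive difference was 36.9%, and 48.7% without both arrays numbered 1. In these 2 lists 8 and 20 genes had groups that did not overlap, where 24.8% of all genes did.

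The last list held 15 genes known to control how much of these receptors a cell makes or shows. Cd69 rose, and 15 of 15 differences were positive, with a median of 0.12, where 36.9% of all genes were positive. At an unadjusted p under 0.05 by limma 6 of 15 passed, beside 3605 of 19938 over all genes. Groups did not overlap for 8 of 15, where 24.8% of all genes did not. CD69 is an activation antigen that binds S1PR1 and takes it off the cell surface. Cd69 read 10.99, 11.09 and 11.01 in ERT2 arrays and 11.75, 11.60 and 11.67 in Cre-ERT2 arrays. The groups were 0.51 apart at their nearest arrays. Its log2 difference was 0.65 ± 0.06 (SE; limma adjusted p = 0.00257), and it passed under 16 of 16 alternatives, from 0.57 to 0.70. The highest limma adjusted p among these alternatives was 0.0498, close to the threshold. The log2 difference was 0.57 ± 0.10 (SE) with the mast cell covariate. KLF2 and FOXO1 drive transcription of S1pr1 and Ccr7 respectively in lymphocytes and were named after their values were seen. Klf2 differed by 0.07 ± 0.07 (SE; limma adjusted p = 0.675) and Foxo1 by 0.10 ± 0.06 (SE; limma adjusted p = 0.455). With the mast cell covariate 11 of the 15 differences were positive, beside 31.6% of all genes. Without both arrays numbered 1, 15 of 15 were positive, beside 48.7% of all genes. After repeated quantile normalization 15 of 15 were positive, beside 41.2% of all genes.

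**Figure D3:**
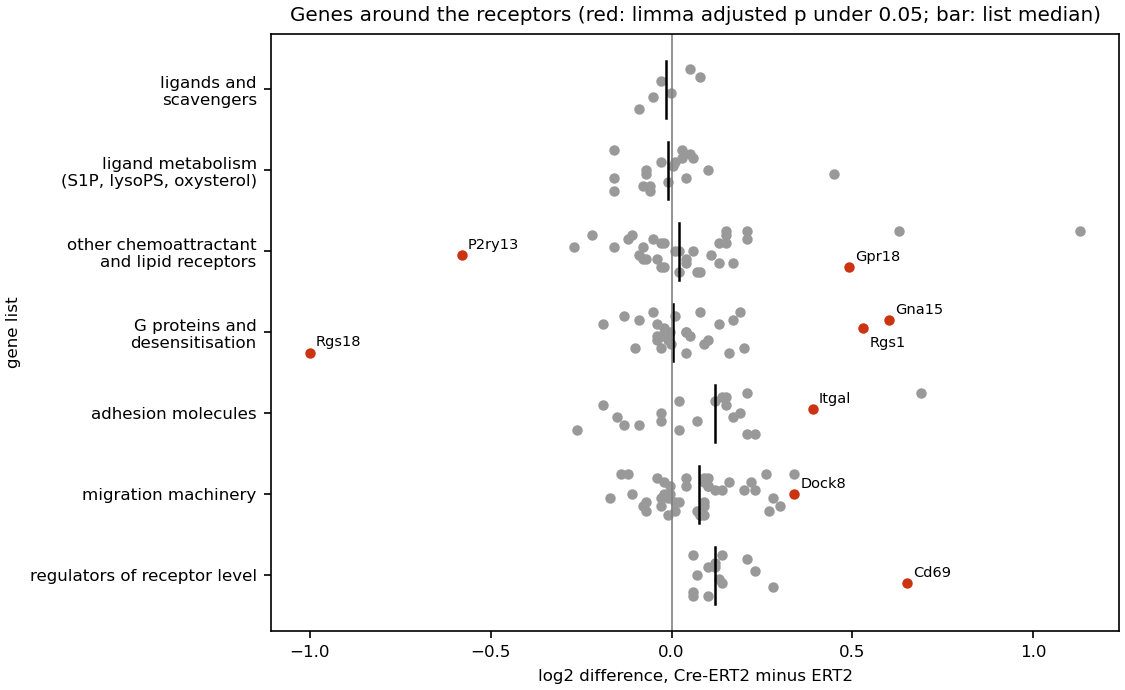
Log2 difference, Cre-ERT2 minus ERT2 (horizontal axis), of 171 genes in 7 lists around the receptors, with a point for each gene and a bar at each list's median. Red points passed the limma test across all genes (adjusted p under 0.05): Cd69, Dock8, Itgal, Gna15, Rgs1 and Gpr18 rose, and Rgs18 and P2ry13 fell.

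**Figure D4:**
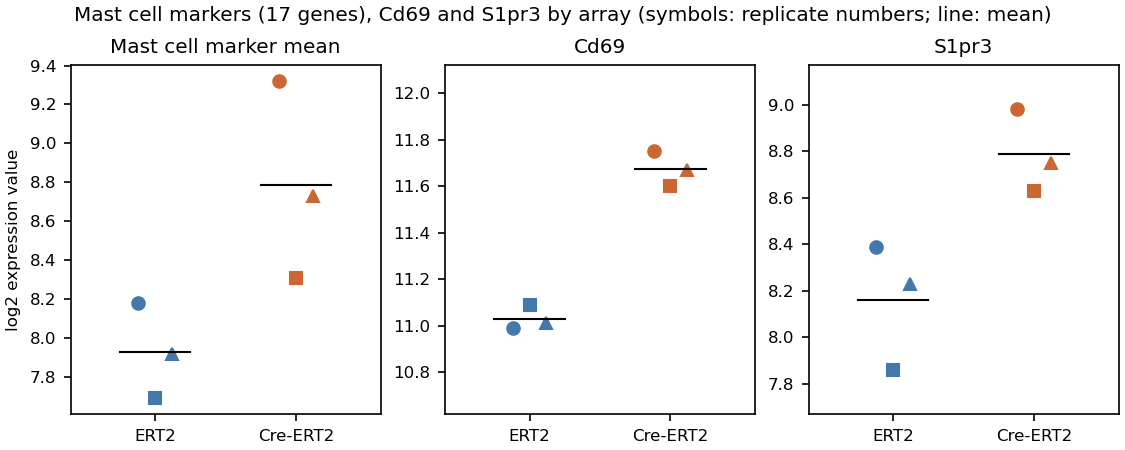
Log2 expression value (vertical axes, with different ranges) by array of the mean of 17 mast cell markers, of Cd69 and of S1pr3, with a symbol for each replicate number and a line at the group mean. Within both groups array 1 is highest and array 2 lowest for the marker mean and for S1pr3, and Cd69 in the controls has its highest value, 11.09, on array 2.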

How the data were processed

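The authors deposited log2 expression values for 35556 probes on 6 arrays. The submitters' processing notes name RMA and Partek 6.5 but not what each did; genome build and background correction: not given in the sources used here. Values were used as deposited. Of the probes, 21789 name 1 gene in the platform annotation, 1621 several and 12146 are unnamed here. Entrez identifiers of 21698 matched RefSeq GRCm38.p6, with 0 symbols changed. The brightest single-gene probe over all arrays stood for a gene, which left 19938 genes.

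A linear model per gene (limma 3.58.1 under R 4.3.3, moderated by eBayes) compared the groups, and p-values were adjusted by Benjamini-Hochberg over all 19938 genes. The number of arrays limits the precision. The script was tested on simulated data.

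Members and lists were chosen with earlier results of these data known. Named list genes were all called genes, up to 6 per list, or otherwise the 2 with the lowest p; others are marked as named after their values were seen. The alternative without both arrays numbered 1 was added after seeing the data. Of 183 list entries 171 were measured, and the others are not analysed here.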

Additional observations from a re-analysis of the deposited data

How the results depend on the processing

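P2ry10b, P2ry10 and Ccr7 kept their direction under 16 of 16 alternatives, with log2 differences from -0.78 to -0.61, from -0.53 to -0.30 and from 0.19 to 0.44. Some of these alternatives could not change a direction. Leaving out dim genes, the probe choices, the intensity trend and the replicate block each returned the main difference. With the mast cell covariate the log2 differences were 0.19 (Ccr7), -0.30 (P2ry10), -0.61 (P2ry10b), -0.30 (S1pr1), -0.06 (S1pr2), -0.10 (Gpr183) and 0.17 (Cxcr5). The marker mean differs between the groups, so this covariate also takes up part of the group difference. Repeated quantile normalization gave 0.01 for Cxcr4 and 0.05 for S1pr4. Over all genes, 159 were called higher and 223 lower. The counts were 364 and 791 with dim genes left out (Gpr183 was then not tested), 13 and 8 with every probe tested, 314 and 692 with median-centred arrays, 369 and 334 after repeated quantile normalization, 388 and 959 with an intensity trend, 763 and 1082 with array weights, 69 and 47 with the mast cell covariate, 123 and 43 without both arrays numbered 1, 33 and 23 at an adjusted p of 0.01, and 401 and 833 at 0.1. With the replicate block they were 296 and 285. Deviations of arrays with the same number correlated at 0.27, 0.34 and 0.03, and those with different numbers between -0.33 and 0.04. The main fit did not pair arrays by number, and whether the numbers pair the samples is not settled by these values. Pathway list genes called higher numbered 6. They were 13 with dim genes left out, 1 with every probe tested, 13 with centred arrays, 16 after quantile normalization, 17 with a trend, 21 with array weights, 11 with the replicate block, 3 with the covariate, 3 without both arrays numbered 1, 1 at 0.01 and 15 at 0.1. Those called lower numbered 2, and 0 with every probe tested or at 0.01. Leaving out each array in turn gave 31 to 188 higher and 18 to 111 lower calls over all genes, and 1 to 8 higher and 0 to 1 lower list genes. The mast cell marker difference then lay between 0.59 and 1.09. The causes of these shifts were not tested.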
